A study of Mus musculus with 17 samples.

Results

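The transcripts described here are those that the mouse annotation classes as targets of nonsense-mediated decay (NMD), in genes that also have a protein-coding transcript. They were chosen by their class and by the level of their gene: the summed TPM of the gene (a level scaled for transcript length and library total) had to reach 1 in every one of the 17 samples. The rule left 4554 NMD transcripts of 2748 genes, out of 7205 NMD transcripts in 4601 genes and out of 142376 transcripts in 55357 genes in all. Of the 2748 genes, 1658 have a single NMD transcript and the largest number in 1 gene is 13. The gene level was therefore part of the choice, and nothing is read from it. *Crebzf* and *Sgsh* lay just inside the limit, with lowest gene levels of 1.0005 and 1.0025 TPM, and *Arih1* and *Rras* just outside it, with 0.9999 and 0.9963 TPM.

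RNA was sequenced from sorted β cells of male mice. Control islets, labelled WT, came from Tdtomato mice, in which the rat insulin promoter drives Cre and a Cre-dependent *Rosa26* reporter marks the β cell lineage. *Pcbp2* βKO islets came from RIPCre+;Pcbp2Fl/Fl;Tdtomato mice, which carried the same Cre and reporter and in addition floxed *Pcbp2*, the gene of a poly(C)-binding RNA-binding protein. Cre under this promoter acts in the β cell lineage, and the sort took tdTomato-positive cells that excluded DAPI, so that the marker of the sort was the reporter and not insulin. Islets of both genotypes were kept for 72 hours at 2.8 or 16.7 mM glucose before the sort, which gave 4 groups: control cells at 2.8 mM (3 samples) and at 16.7 mM (4 samples), and *Pcbp2* βKO cells at the same concentrations (5 samples each). An age for these animals was not given in the sources used here. The labels do not say whether replicates were separate animals or pools, so p values measure the spread between these samples.

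NMD is the pathway by which cells degrade mRNAs whose stop codon lies upstream of an exon junction. Splicing leaves a protein complex near each junction, translating ribosomes clear these complexes from the coding region, and a complex left downstream of a terminating ribosome recruits UPF1 and its partners, which leads to decay of the mRNA. The pathway removes faulty mRNAs and also sets the level of normal genes: many splicing factors make a transcript with a poison exon, an exon that carries a premature stop, and raise its use when the protein is abundant. What RNA sequencing measures of such a transcript is what has been made and not yet degraded.

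The annotation of these transcripts follows that logic. Of the 4554 transcripts, 4545 could be matched to the reference annotation (GRCm39) and 4544 have an annotated stop codon. In 4518 of them (99.43%) the stop lies 50 bases or more before the last exon junction, at a median distance of 313 bases and with a median of 3 junctions downstream. The stop codon is TGA in 58.01%, TAA in 22.25% and TAG in 19.74%. In 2770 transcripts (60.96%) the stop falls in an exon that protein-coding transcripts of the gene also use. In 932 (20.51%) it falls in an internal exon that no protein-coding transcript of the gene contains, which is the layout of a poison exon. Another 574 (12.63%) have the stop in other sequence absent from the protein-coding transcripts, and 268 (5.898%) use the stop of a protein-coding transcript but have a further junction after it.

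The sequences around the stop are shown for the transcripts on which the results turn, each with 12 bases on either side and with the stop codon in capitals, 5′ to 3′ along the mRNA, read from the GRCm39 genome by the exons of the matched GENCODE models. The first group has the stop in an exon of its own.
*Tra2b-206*: ctcaggaataagTGAagctgaaatttg
*Tra2a-202*: agattggtcagaTAGaagcacttgaat
*Srsf3-201*: ctcaccaccctcTGAatctgcattagc
*Nt5c2-207*: ggaaagccagtgTAActccttcaagac
*Borcs8-203*: gaagaagagcacTGActcctgtaggtg
*Rps19-205*: caacacagcctcTGAaaaccaaaaggt
*E2f6-204*: ggcccagttctgTAAtgccagtccttg

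The exon of *Tra2b-206* is at chr16:22077736-22078011 on the minus strand and holds 276 bases, and it cuts the coding sequence to 114 bases from the 864 bases of the longest protein-coding transcript. The exon of *Tra2a-202* is at chr6:49229737-49230042 on the minus strand (306 bases), and that of *Srsf3-201* at chr17:29258428-29258883 on the plus strand (456 bases). Shorter exons carry the stop in *Nt5c2-207*, at chr19:46897929-46897987 on the minus strand (59 bases), and in *E2f6-204*, at chr12:16863848-16863913 on the plus strand (66 bases). The exon of *Borcs8-203* is at chr8:70597148-70597247 (100 bases) and that of *Rps19-205* at chr7:24585532-24585612 (81 bases), both on the plus strand.

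A second group has no such exon. *Hnrnpa1-203* keeps a stop that a protein-coding transcript also uses and has its last junction 90 bases further on, while *Surf1-209*, *Atl2-205* and *Ttyh1-201* meet the stop in an exon of the protein-coding transcripts. *Khnyn-203* meets it in an extension of an exon.
*Hnrnpa1-203*: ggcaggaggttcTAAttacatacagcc
*Surf1-209*: agggatggtctgTAGgccacgcaggtg
*Atl2-205*: tggtggaaacaaTGAacccttgactgg
*Ttyh1-201*: tgggtgaggcagTGAagacggagctga
*Khnyn-203*: atcagagagcggTGAgagaatagggca

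How well reads can tell these transcripts from the others of their gene was described from the 31-base words of their sequence. The comparison was with the transcripts of the gene outside the NMD class. Of 4545 NMD transcripts, 308 (6.777%) have no word absent from all of those, 2045 (44.99%) have 1 to 30 such words, and 2192 (48.23%) have more than 30. The median is 30 words in a transcript of 979. The levels are thus estimates that rest on a junction or a short stretch in many transcripts. Values of *Ogfod2-209*, which has 0 words that the protein-coding transcripts lack, are uncertain in this sense. *Hnrnpa1-203* has 221 words that the protein-coding transcripts lack, but 74.46% of its words also occur in transcripts of other genes, and for *Rpl12-201* that share is 95.85%, so that their levels could have been split with near-identical copies. It is 40.92% for *Tra2b-206* and 36.78% for *Srsf3-201*, to which the same limit applies. For *Khnyn-203* it is 19.96%, and the gene that shares most words with it is *Sdr39u1* (820 words). It is 21.8% to 44.25% for the NMD transcripts of *Dnajc8*, 66.67% for *Rpl22l1-204* and 59.23% for *Rps12-204*. Reads of these too could have been split with other genes.

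The libraries held 47385513 to 82419400 estimated counts, of which NMD transcripts took 843744 to 1817665. *Pcbp2* itself, the deleted gene, was at 50.7 to 73.4 CPM (counts scaled to the library total) in control cells at 2.8 mM and at 15.5 to 19.2 in *Pcbp2* βKO cells, and at 35.0 to 45.4 against 5.811 to 10.03 CPM at 16.7 mM, so every library matched its genotype label. Transcripts of *Ins1* and *Ins2* made up 30.8% to 35.1% of all TPM in control and 19.7% to 32.9% in *Pcbp2* βKO cells at 2.8 mM. At 16.7 mM they made up 56.9% to 62.5% over both genotypes. The median gene TPM of the members was 16.15 to 21.58 at 2.8 mM against 7.539 to 12.33 at 16.7 mM. The 3 libraries at 16.7 mM that stood apart were control replicate 4 and *Pcbp2* βKO replicates 4 and 5: on the first principal component of the genes' log2 CPM they lay at 4.5 to 11.6, the other libraries at 16.7 mM at 47.6 to 52.2 and those at 2.8 mM at -52.5 to -23.7. Markers of other islet cells moved with glucose. The summed TPM of 4 α cell markers, led by glucagon, was 722.5 to 2753 in control cells at 2.8 mM and 136.4 to 1216 at 16.7 mM, and 1752 to 13010 against 100.6 to 835 in *Pcbp2* βKO cells. *Ppy*, the hormone of PP cells, was at 2711 to 17070 TPM at 2.8 mM and at 457.6 to 2229 TPM at 16.7 mM, 2 δ cell markers summed to 136.8 to 2099 and 77.81 to 355.1 TPM, and 3 macrophage markers to 4.383 to 14.62 and 0.4863 to 3.549 TPM. At 2.8 mM *Ppy* was at 2711 to 3200 TPM in control and 3656 to 17070 TPM in *Pcbp2* βKO cells, and the δ cell markers at 136.8 to 565.7 and 239.3 to 2099 TPM. The 8 β cell markers summed to 242100 TPM or more in every library, while acinar, ductal, endothelial and stellate markers summed to at most 0.1923, 0.9196, 0.39 and 0.6326 TPM. The part of these cells in the results on glucose and on genotype was not tested, and in bulk samples fewer cells of a type and less RNA per cell cannot be told apart.

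The value followed below is the NMD share: the summed TPM of the NMD transcripts of a gene as a percentage of the TPM of all its transcripts. Over the 2748 genes the mean share across samples had a median of 3.695%, with quartiles of 0.9465% and 12.42%. In 706 genes it was under 1% and in 106 it was over 50%. In 61 genes the NMD transcripts were listed at 0 in every sample. Tests were limited to 1359 genes (2691 NMD transcripts) with a mean NMD level of 0.5 TPM and a mean estimated count of 10 or more over all samples, and the remaining 1389 genes had a median share of 1.097%.

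The highest shares belonged to 5 genes by the naming rule (mean gene level of 10 TPM or more). *Lars2*, the mitochondrial leucyl-tRNA synthetase, led with a mean of 98.44%, and its share ran from 97.51% to 98.96% over the samples. *Lars2-209*, its only NMD transcript among the members, has 35 of 3726 words that the protein-coding transcripts lack. *Mmaa*, a gene of cobalamin metabolism, followed at 91.47%, then *Mrpl32*, a protein of the mitochondrial ribosome, at 88.53%, *Kmt2e*, a chromatin regulator, at 87.29%, and *Aptx*, a DNA repair enzyme, at 86.86%.

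The first comparison asked how the NMD share of a gene changed with the glucose concentration in which the islets were kept. Among genes that passed a filter on low values, and with a pseudocount of 0.1 TPM, it was called lower at 16.7 mM in more genes than it was called higher in both genotypes. With a pseudocount of 1 TPM or without the filter that balance reversed, as given below with the counts. The 5 genes named for the largest fall in control cells were *Hnrnpa1*, *Tra2b*, *Surf1*, *Nt5c2* and *Borcs8*, of which *Hnrnpa1* and *Tra2b* are listed splicing regulators. The group means of the regulators *Hnrnpa1*, *Tra2b*, *Srsf3* and *U2af1* lay between 30.46% and 68.14% of the gene at 2.8 mM and between 9.685% and 31.96% at 16.7 mM. Of 34 tested splicing regulators, 9 were called lower in control and 12 in *Pcbp2* βKO cells, and 0 and 3 higher. Genes whose share rose included *Khnyn*, *Atl2* and *Dnajc8*.

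In each sample the median share over the 1359 tested genes was 12.03% to 13.07% in control cells at 2.8 mM (mean 12.65% ± 0.546, SD, n = 3) and 10.32% to 11.67% at 16.7 mM (10.91% ± 0.595, n = 4). In *Pcbp2* βKO cells it was 11.82% to 13.36% at 2.8 mM (12.68% ± 0.588, n = 5) and 10.4% to 11.79% at 16.7 mM (10.89% ± 0.545, n = 5). No sample at 16.7 mM reached the lowest sample at 2.8 mM, in either genotype, while the genotypes overlapped at each concentration. The 1359 genes were kept by mean NMD TPM over all samples, and TPM of the members were higher at 2.8 mM. Classes high at 2.8 mM thus passed more easily. Part of this difference may come from the filter, which was not tested. The difference is smaller over all 2748 genes, most of which have a low share: 3.442% to 3.554% against 2.84% to 3.331% in control cells, and 3.303% to 3.94% against 2.96% to 3.339% in *Pcbp2* βKO cells, where the ranges overlapped. Retained-intron transcripts, a class not annotated as coding, had group means of 10.1% and 10.38% in control cells and 10.8% and 10.74% in *Pcbp2* βKO cells at 2.8 and 16.7 mM. These medians are descriptions with no test. NMD transcripts summed to 1.15% to 1.57% of all TPM at 2.8 mM and to 0.466% to 0.716% at 16.7 mM, a measure that moves with the insulin transcripts, unlike a share within a gene.

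**Figure D1:**
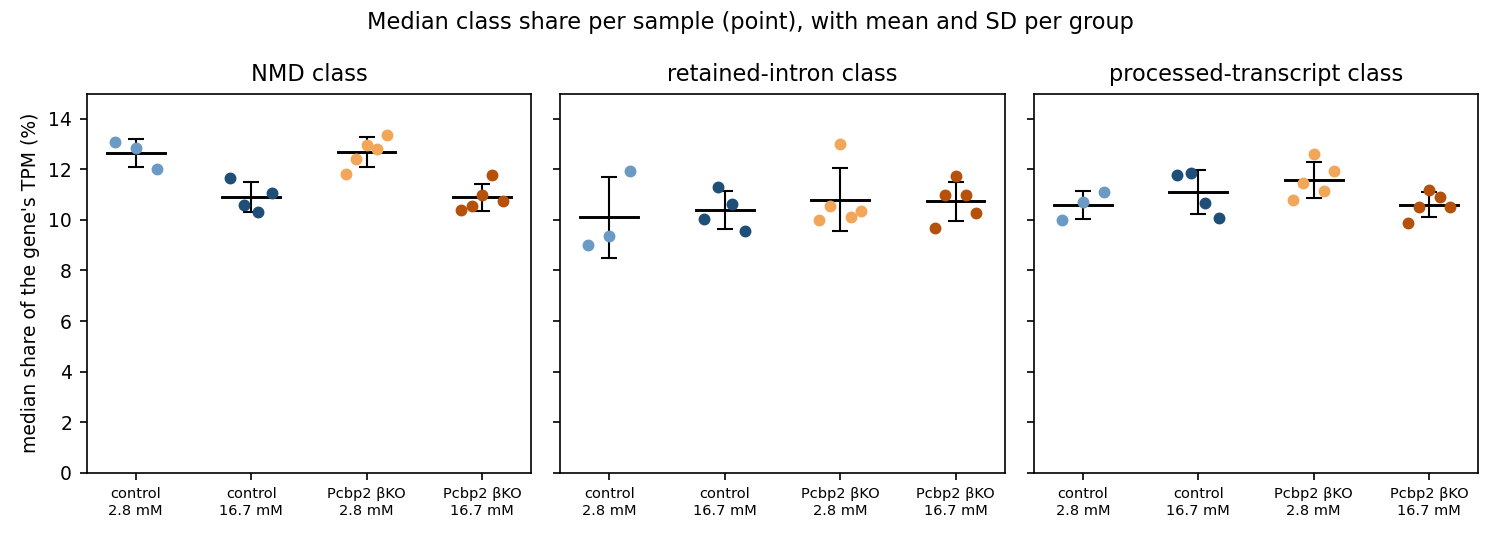
Median NMD share over the 1359 tested genes in each of the 17 samples (vertical axis, percent of the gene's TPM) by genotype and glucose, beside the same median for retained-intron and processed-transcript classes. Points are samples and bars are group means with SD. The NMD medians at 16.7 mM (10.32% to 11.79%) all lie below those at 2.8 mM (11.82% to 13.36%). Classes high at 2.8 mM passed the filter on mean NMD TPM more easily.

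Gene by gene, the ratio of NMD to all other TPM of the gene was tested on the log2 scale with limma, over 6957 classes other than protein-coding of all genes with the same minimum level, and calls needed a ratio changed over 1.5 times with an adjusted p below 0.05. In control cells 74 of 1359 genes (5.445%) had a lower share at 16.7 mM and 20 (1.472%) a higher one. Over all classes 2.30% were called lower and 1.97% higher, so that the NMD share was called lower more often than the classes together and called higher less often; these are counts, and the difference between them was not tested. In *Pcbp2* βKO cells, which have more samples, 200 genes (14.72%) were lower and 63 (4.636%) higher, beside 7.66% and 7.22% of all classes. The median change was -0.13 (log2 ratio) in control and -0.14 in *Pcbp2* βKO cells for NMD, and 0.06 and 0.02 over all classes. Retained introns gave 38 lower and 66 higher calls in control cells and 176 and 292 in *Pcbp2* βKO cells.

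The balance of the calls depended on how low values were treated. A fixed pseudocount weighs more at 16.7 mM, where the gene TPM of the members were lower, and raises the ratio of classes with a small share there. The filter on mean NMD TPM, in turn, is passed more easily by classes high at 2.8 mM. With a pseudocount of 1 TPM in place of 0.1 the calls were 181 higher and 76 lower in control cells and 263 and 129 in *Pcbp2* βKO cells, and without the filter on low values they were 129 and 90, and 377 and 230. A test with no TPM pseudocount, edgeR on the NMD counts with the gene's count as offset, gave 14 higher and 60 lower in control cells and 46 and 172 in *Pcbp2* βKO cells. It follows NMD against the whole gene and not against its other transcripts. Changes of large shares are smaller on that scale, so its calls and those of limma differ in measure too. With the replicate number as a block, the control comparison gave 33 higher and 138 lower, and without the 3 libraries that stood apart 30 and 118 (51 and 197 in *Pcbp2* βKO cells). A single control library also moved it: the calls were 5 higher and 19 lower without replicate 2 at 2.8 mM, 6 and 36 without replicate 1 at 2.8 mM, 8 and 45 and 8 and 40 without replicates 2 and 3 at 16.7 mM. The calls over all classes under these settings are not given here, so whether such shifts were particular to NMD cannot be read from these counts.

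The 2 glucose comparisons share no sample, but they come from the same fit with a common estimate of the spread, so their calls are not independent. The overlap of calls over all classes was not counted. Of the 74 genes lower in control cells, 64 were called lower in *Pcbp2* βKO cells too, which is 86.49% of the control calls and 32.0% of the 200 calls in *Pcbp2* βKO cells. Of the 20 higher, 14 were also called there (70.0% and 22.22% of the 63). None was called in opposite directions, and of the 200 and 63 genes called in *Pcbp2* βKO cells, 196 and 62 had an estimate of the same sign in control cells. No gene's response to glucose was called different between genotypes by the interaction term of the same limma fit, as described further on.

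**Figure D2:**
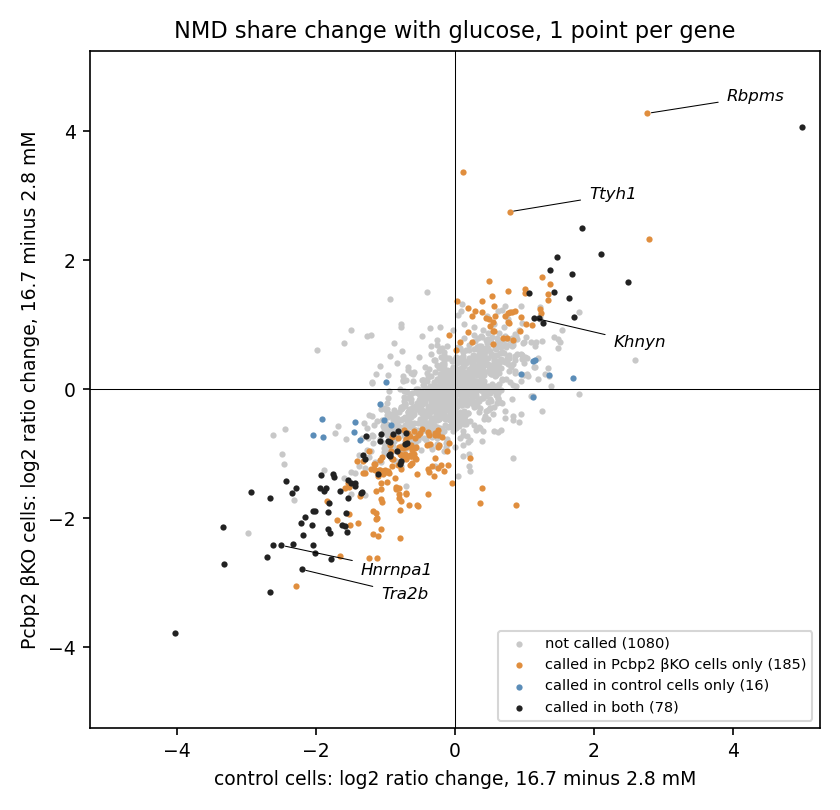
Change of the NMD share with glucose for each of the 1359 tested genes, as the log2 change of the ratio of NMD to other TPM (16.7 minus 2.8 mM), in control cells (horizontal) and in Pcbp2 βKO cells (vertical). Black points are the 78 genes called in both genotypes, orange the 185 called in Pcbp2 βKO cells only, blue the 16 called in control cells only and grey the 1080 called in neither; called genes lie mostly along the diagonal and more of them at the lower left.

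*Hnrnpa1* encodes a splicing repressor of the hnRNP family, and among the genes named in control cells its share fell by the most percentage points. It was 59.8%, 57.58% and 39.77% at 2.8 mM and 14.13%, 14.48%, 12.44% and 23.95% at 16.7 mM. The *Pcbp2* βKO samples ran from 44.94% to 57.28% at 2.8 mM and from 12.66% to 21.43% at 16.7 mM. The groups did not overlap in either genotype. Genes named by a comparison had to show no overlap in it, so for them such separation is part of the choice. The log2 ratio fell by 2.50 ± 0.31 (SE; limma adjusted p = 0.000315) in control and by 2.42 ± 0.26 (adjusted p = 2.371e-05) in *Pcbp2* βKO cells. Its NMD level fell in the count test (-1.22 on the log2 scale, edgeR adjusted p = 0.00531) while the level of its protein-coding transcripts rose (1.30, adjusted p = 0.0105). These transcripts share words with other genes, as given above.

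*Tra2b* and *Tra2a* encode a pair of related splicing activators, each with a poison exon. The *Tra2b* share was 70.88%, 73.88% and 56.94% in control cells at 2.8 mM and 40.82%, 32.17%, 16.34% and 38.51% at 16.7 mM. The *Pcbp2* βKO samples were at 64.69% to 70.95% and 15.43% to 36.72%. The groups were separate in both genotypes, as the naming rule required, and the spread was wide at 16.7 mM. The log2 ratio fell by 2.21 ± 0.43 (adjusted p = 0.00857) and by 2.79 ± 0.36 (adjusted p = 8.89e-05). The NMD transcripts, 3 in all, went from 37.65 to 7.333 TPM in control cells and the protein-coding ones from 15.49 to 14.52 TPM. Together the NMD transcripts were thus the more abundant kind at 2.8 mM. In the edgeR count test, which does not rest on TPM, the NMD level changed by -1.66 in control and -1.62 in *Pcbp2* βKO cells (log2), called lower in both. The protein-coding level changed by 0.50, not called, and by 0.95, called higher. The *Tra2a* share was 25.7% to 60.56% and 12.17% to 26.56% in control cells, which overlap, and 29.2% to 52.04% and 9.068% to 19.9% in *Pcbp2* βKO cells, which do not. Without control replicate 2 at 2.8 mM the control change of *Tra2b* was -1.99 (adjusted p = 0.0741), and the control call of *Tra2a* (log2 ratio -1.66, adjusted p = 0.0466) was lost without any of 5 control libraries, all but replicate 3 at 2.8 mM and replicate 4 at 16.7 mM (adjusted p from 0.0742 to 0.264). It was also lost without any 1 of 7 *Pcbp2* βKO libraries, which enter the estimate of the spread (0.053 to 0.0579), so in 12 of 17 such fits.

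*Srsf3*, a serine/arginine-rich splicing factor, moved in another way. Its share was 30.94%, 33.77% and 26.65% in control cells at 2.8 mM and 12.49%, 12.81%, 8.929% and 18.08% at 16.7 mM. Those of *Pcbp2* βKO cells were at 34.0% to 47.39% and 9.145% to 14.79%. The log2 ratio fell by 1.56 ± 0.26 (adjusted p = 0.00295) and by 2.21 ± 0.22 (adjusted p = 9.934e-06). Here the NMD level had a log2 change of -0.18 in the count test in control cells (edgeR adjusted p = 0.70) and the protein-coding level rose by 1.69 (adjusted p = 0.00317), so the lower share came with more protein-coding transcript.

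The list of 45 splicing regulators with known poison exons or regulated NMD forms had 39 members, of which 34 were tested. This list and the gene lists below were written with earlier results of these data known. Their counts beside those of all genes or classes therefore describe the lists and do not test them. In control cells 9 were lower (*Hnrnpa1*, *Hnrnpdl*, *Hnrnpk*, *Rbm39*, *Srsf2*, *Srsf3*, *Tra2a*, *Tra2b* and *U2af1*) and 0 higher, beside 2.30% of all classes and 5.445% of all tested NMD genes called lower. The remaining 25 did not pass. In *Pcbp2* βKO cells 12 were lower, the same 9 with *Hnrnph3*, *Srsf1* and *Srsf7*, and 3 were higher, *Clk2*, *Clk3* and *Clk4*, kinases that phosphorylate serine/arginine-rich splicing factors. There 7.66% of all classes and 14.72% of NMD genes were called lower, and 7.22% and 4.636% higher. The median change over the 34 was -0.72 in control and -0.65 in *Pcbp2* βKO cells, beside -0.13 and -0.14 over all tested NMD genes. *U2af1*, which falls outside the naming rule and was picked after its values were seen, encodes a subunit of the factor that recognises the end of the intron. Its share went from 31.05% ± 3.94 to 9.685% ± 2.95 in control cells and from 32.07% ± 7.68 to 9.828% ± 2.90 in *Pcbp2* βKO cells (log2 ratio -2.06, adjusted p = 0.00196, and -2.10, adjusted p = 9.099e-05).

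**Figure D3:**
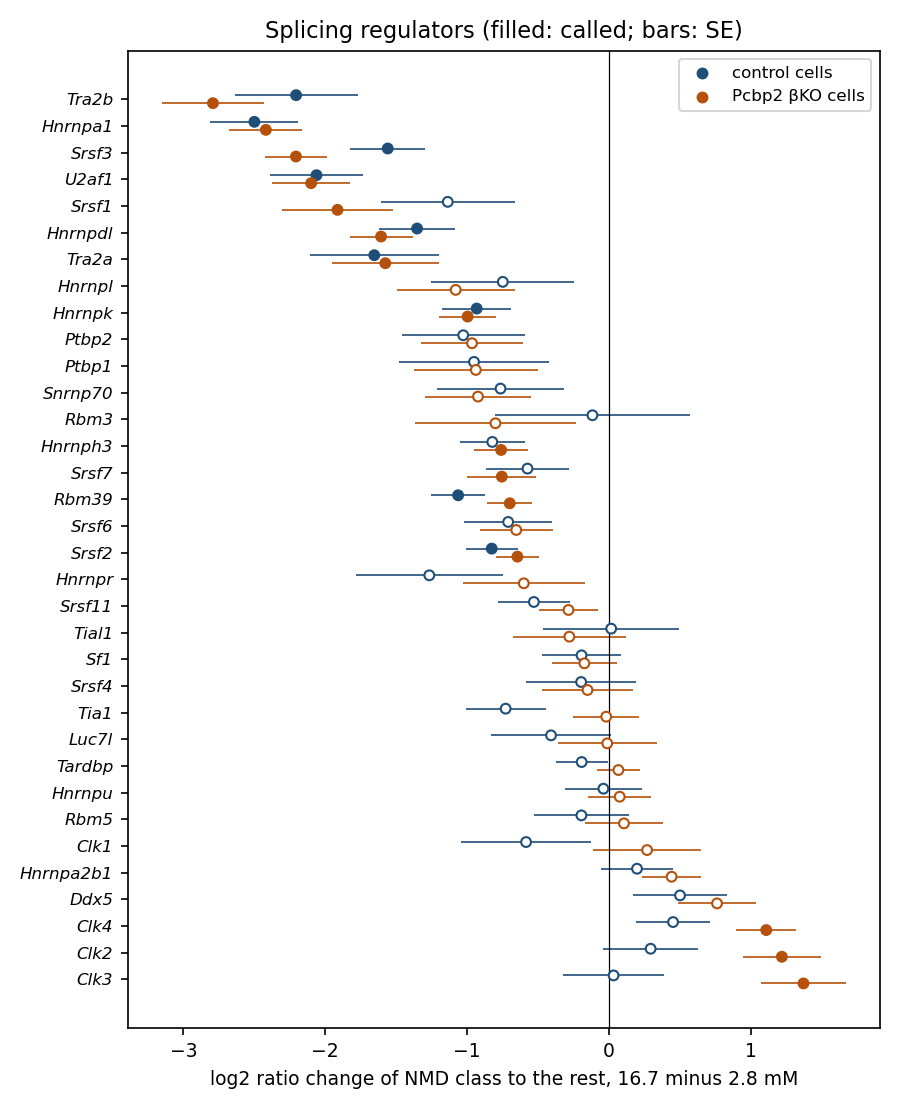
Log2 change of the NMD to other TPM ratio with glucose (horizontal axis, 16.7 minus 2.8 mM) for the 34 tested splicing regulators, 1 line each, in control and Pcbp2 βKO cells. Points are limma estimates with bars of 1 SE, and filled points are called; 28 of 34 estimates in control cells and 25 of 34 in Pcbp2 βKO cells lie below 0, and the filled points above 0 are Clk2, Clk3 and Clk4 in Pcbp2 βKO cells.

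*Hnrnpk* belongs to the same protein family as *Pcbp2*. Its share was small and fell in control cells from 4.167% to 6.355% at 2.8 mM to 2.456% to 3.836% at 16.7 mM, with no overlap (log2 ratio -0.93, adjusted p = 0.0374), and in *Pcbp2* βKO cells by 1.00 (adjusted p = 0.00297). Its call in control cells was lost with the arcsine scale and with shares of estimated counts, and without any of the same 5 control libraries (adjusted p from 0.062 to 0.161). Of the words of its 3 NMD transcripts, 72.27% to 85.86% also occur in transcripts of other genes, so that these levels are uncertain too. *Pcbp3* and *Pcbp4* are members whose NMD transcripts did not pass the filter, and *Pcbp2* is not a member.

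Genes outside splicing also lost NMD share. *Surf1*, an assembly factor of cytochrome c oxidase, was at 68.92%, 68.7% and 62.73% in control cells at 2.8 mM and at 27.04%, 31.57%, 27.74% and 47.77% at 16.7 mM. Its *Pcbp2* βKO samples were at 60.92% to 72.9% and 29.75% to 49.45%. The highest values at 16.7 mM are replicate 4 in both genotypes, and they lie below every sample at 2.8 mM. *Surf1-209* made up most of the NMD level and went from 53.78 ± 9.76 to 6.187 ± 4.39 TPM in control cells, values that also move with the insulin transcripts. The log2 ratio fell by 2.02 ± 0.31 (adjusted p = 0.00117) and by 1.88 ± 0.25 (adjusted p = 0.00012).

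*Nt5c2*, a cytosolic nucleotidase, showed both changes of level. Its share was 49.66%, 55.36% and 43.07% at 2.8 mM and 16.71%, 14.96%, 14.65% and 31.89% at 16.7 mM in control cells, and 38.2% to 54.68% against 10.97% to 19.82% in *Pcbp2* βKO cells. The groups did not overlap, as the naming rule required. In control cells the NMD level fell (-1.36 on the log2 scale, edgeR adjusted p = 0.00842) and the protein-coding level rose (1.33, adjusted p = 0.00115). *Borcs8*, a subunit of a complex that positions lysosomes, went from 45.5% to 59.21% down to 16.38% to 32.24% in control cells and from 39.18% to 48.63% down to 14.34% to 29.23% in *Pcbp2* βKO cells (log2 ratio -1.94, adjusted p = 0.00195, and -1.52, adjusted p = 0.000723).

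*Selenoi*, an enzyme of phosphatidylethanolamine synthesis, was named in *Pcbp2* βKO cells, where its share was 40.77% to 49.31% at 2.8 mM and 7.839%, 31.92%, 8.72%, 9.138% and 8.606% at 16.7 mM (log2 ratio -2.25, adjusted p = 0.00061). In control cells 3 samples at 16.7 mM were at 13.9% to 16.68% and replicate 1 at 37.29%, within the 35.28% to 41.38% of the samples at 2.8 mM, and the change of -1.18 did not pass (adjusted p = 0.132).

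The share of *Khnyn*, a cofactor in antiviral RNA decay, rose. It was 50.08%, 50.56% and 50.8% in control cells at 2.8 mM and 68.07%, 72.96%, 73.72% and 66.0% at 16.7 mM, and 48.06% to 58.11% against 65.93% to 75.77% in *Pcbp2* βKO cells. The log2 ratio rose by 1.14 ± 0.20 (adjusted p = 0.00392) and by 1.11 ± 0.17 (adjusted p = 0.00033). Both levels of *Khnyn* were lower at 16.7 mM, that of the protein-coding transcripts more so (-2.19 on the log2 scale in control cells, edgeR adjusted p = 0.00127) than that of NMD (-0.72, adjusted p = 0.0133). The share call of *Khnyn* was lost in both genotypes in the edgeR test with the gene offset. That test follows NMD against the whole gene, not against its other transcripts, with the same fold threshold. A change in a share this large is smaller on that scale. The mean share of *Khnyn* went from 50.48% to 70.19% in control and from 54.26% to 72.69% in *Pcbp2* βKO cells. The part of this difference in measure in the lost call was not tested.

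*Atl2*, a GTPase that shapes the endoplasmic reticulum, rose from 11.68%, 9.864% and 9.949% to 20.18%, 23.82%, 24.34% and 21.39% in control cells and from 12.94% to 17.13% up to 23.37% to 27.66% in *Pcbp2* βKO cells. Its NMD level rose (1.33 on the log2 scale, edgeR adjusted p = 0.00207) and its protein-coding level had a change of -0.11 (adjusted p = 0.747). *Dnajc8*, a chaperone of the spliceosome, had the reverse pattern: its share went from 7.9% to 15.21% up to 20.53% to 29.63% in control cells, with an NMD level change of 0.27 (adjusted p = 0.563) and a fall of the protein-coding level (-1.02, adjusted p = 0.0033). *Mfsd13a*, of a transporter family, went from 7.271% to 11.97% up to 13.28% to 33.35%, and *Ogfod2*, an oxygenase, from 5.37% to 6.484% up to 9.025% to 22.57%. Both are estimated from few reads, 31.73 to 468.0 NMD counts a library for *Mfsd13a* and 96.27 to 621.7 for *Ogfod2*. Without any 1 control library but replicate 4 at 16.7 mM, the control calls of *Mfsd13a* (adjusted p from 0.0734 to 0.182) and *Ogfod2* (0.0692 to 0.147) were lost, that of *Mfsd13a* also without any 1 of 6 *Pcbp2* βKO libraries (0.051 to 0.0557; 12 of 17 such fits in all), and that of *Dnajc8* was lost without replicate 2 at 2.8 mM (adjusted p = 0.106).

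Among the genes named in *Pcbp2* βKO cells the share rose furthest for *Rbpms*, an RNA-binding protein, from 1.753% to 9.841% at 2.8 mM up to 27.4% to 66.78% at 16.7 mM. The log2 ratio rose by 4.28 ± 0.73 (limma adjusted p = 0.000847). These shares rest on few reads at 2.8 mM, 20.33 to 295.2 estimated NMD counts a library, and on 148.9 to 798.5 at 16.7 mM. One of the NMD transcripts of the gene, *Rbpms-208*, has 0 words that its protein-coding transcripts lack. In control cells 3 of 4 samples at 16.7 mM were at 39.53% to 60.74% and replicate 4 at 4.308%, within the range at 2.8 mM, and the change did not pass (adjusted p = 0.0823). *E2f6*, a transcriptional repressor, rose from 26.91% to 40.82% up to 55.5% to 70.96% in *Pcbp2* βKO cells with no change called in the NMD level (0.52 on the log2 scale, edgeR adjusted p = 0.0778) and a fall in the protein-coding level (-1.58, adjusted p = 0.000971). *Clk2* rose there from 6.196% to 15.93% up to 23.05% to 26.13%, on 81.22 to 349.2 estimated NMD counts.

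**Figure D4:**
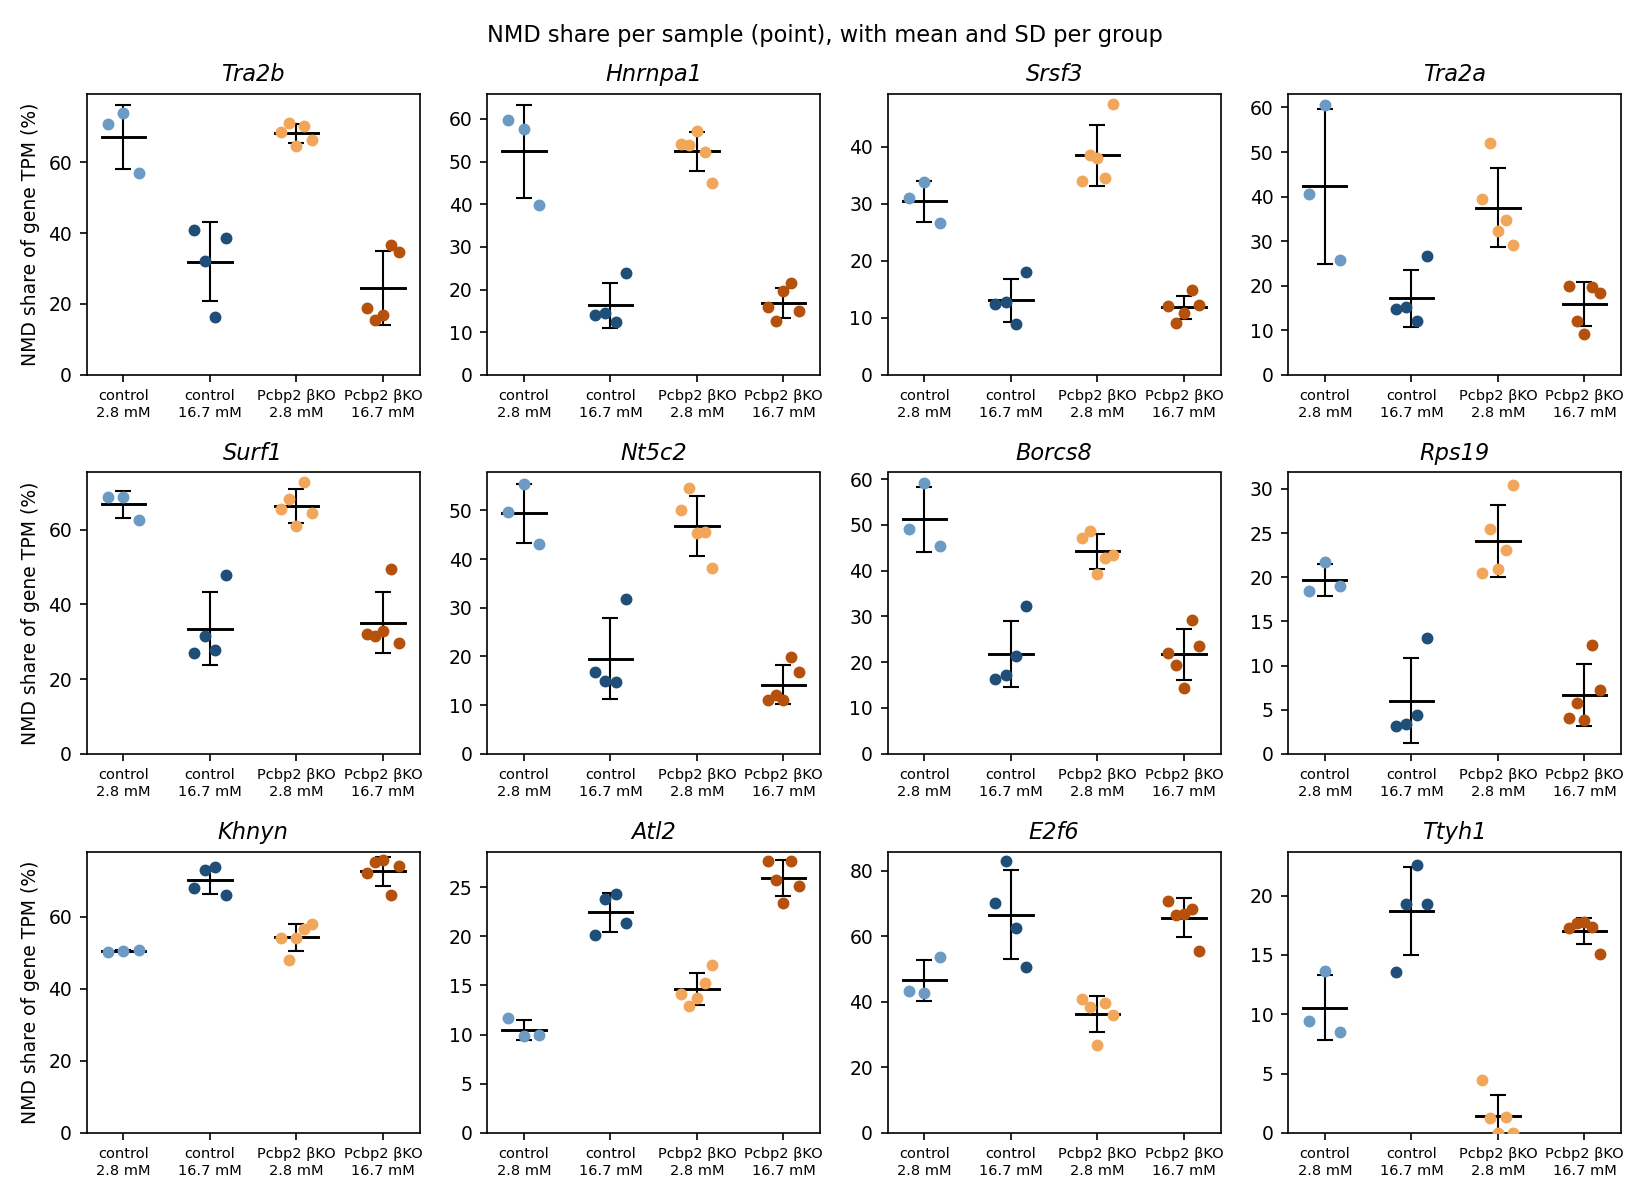
NMD share (percent of the gene's TPM, axes from 0 with their own scale) of 12 named genes, 1 panel per gene, with 1 point per sample and bars for the mean and SD of each group, for control and Pcbp2 βKO cells at 2.8 and 16.7 mM. In Tra2b, Hnrnpa1, Srsf3, Surf1, Nt5c2, Borcs8 and Rps19 every sample at 16.7 mM lies below, and in Khnyn and Atl2 above, all those at 2.8 mM of the same genotype, while Tra2a, E2f6 and Ttyh1 overlap in control cells. Genes named by a glucose comparison had to show no overlap in it.

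A share can change through either kind of transcript, and the levels were therefore tested with edgeR on the counts of each class. Of the 74 genes with a lower share in control cells, the NMD level was called lower in 56, the protein-coding level higher in 10, both in 5 and neither in 13, with median log2 changes of -1.61 for NMD and 0.07 for the protein-coding transcripts. For the 200 in *Pcbp2* βKO cells the counts were 143, 47, 15 and 25, with medians of -1.28 and 0.11. Among genes with a higher share the called change lay in either kind and seldom in both. Of 20 in control cells, NMD was higher in 7, the protein-coding level lower in 10, both in 2 and neither in 5 (medians 0.86 and -0.54). For the 63 in *Pcbp2* βKO cells the counts were 31, 27, 1 and 6 (medians 0.80 and -0.44). Both levels were called in the same direction in 6 of the 74, 22 of the 200, 1 of the 20 and 8 of the 63 genes. The share and these levels come from the same counts, so this describes the calls and does not support them.

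**Figure D5:**
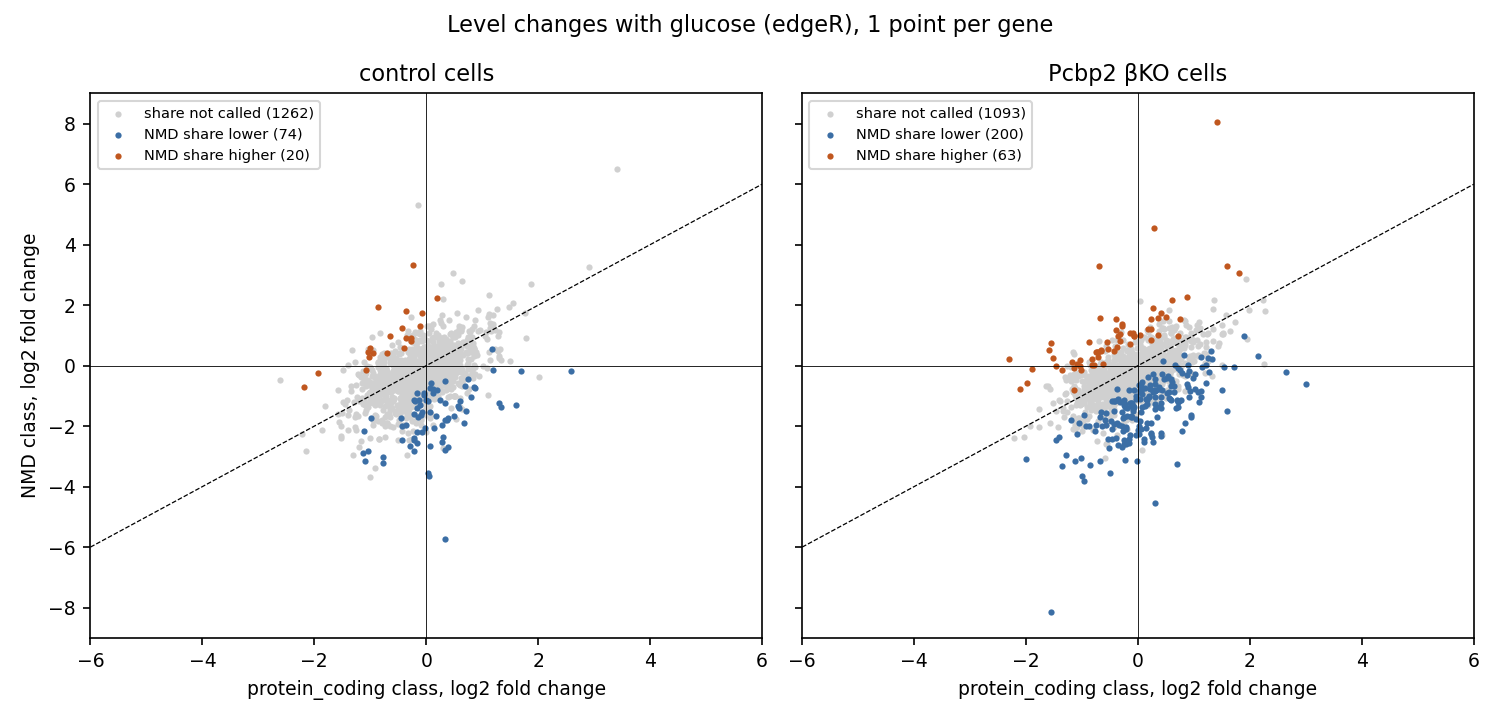
Log2 change of level with glucose (16.7 minus 2.8 mM) of the protein-coding transcripts (horizontal) and of the NMD transcripts (vertical) of each tested gene with both levels, in control cells (left) and Pcbp2 βKO cells (right). The dashed line marks equal change, and coloured points are genes with a called lower or higher NMD share; the lower calls spread mainly downwards (median NMD change -1.61 and -1.28) and not sideways (0.07 and 0.11).

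Over all members with enough counts for the level test (2292 genes), the NMD level was lower at 16.7 mM in 183 and higher in 49 in control cells, beside 4.84% lower and 5.02% higher of 36151 classes, and lower in 340 and higher in 140 in *Pcbp2* βKO cells, beside 9.01% and 11.1%. As shares of the 2292, the lower calls were 7.984% and 14.83% and the higher ones 2.138% and 6.108%. These levels are relative to the counts of a library. On log2 TPM, where the insulin transcripts weigh on every other value, the lower calls were 891 of 905 and 1275 of 1304.

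The calls were also counted by the place of the stop in the most abundant NMD transcript of a gene. Of 274 tested genes with the stop in an internal exon of its own, 26 (9.489%) were lower and 5 higher in control cells, and 48 (17.52%) lower and 21 higher in *Pcbp2* βKO cells. Of 198 with the stop in other sequence absent from protein-coding transcripts, the counts were 10 (5.051%) and 2, and 34 (17.17%) and 11. Of 789 with the stop in an exon of protein-coding transcripts they were 31 (3.929%) and 11, and 104 (13.18%) and 25. Of 94 with the stop of a protein-coding transcript they were 7 (7.447%) and 2, and 14 (14.89%) and 6. The median log2 change lay between -0.15 and -0.05 in each kind and genotype, and the differences between the kinds were not tested.

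Ribosomal protein genes had 20 members of 94 listed genes and 15 tested. In control cells *Rps19* and *Rps9* were lower and 0 higher, beside the 5.445% of all tested NMD genes called lower (2.30% of all classes). Lower in *Pcbp2* βKO cells were 7 (*Rpl10a*, *Rpl12*, *Rpl22l1*, *Rpl27a*, *Rps12*, *Rps19* and *Rps9*) and *Rpl3* was higher, beside 14.72% of NMD genes called lower and 4.636% higher (7.66% and 7.22% of all classes), and the medians were -0.24 and -0.40. The *Rps19* share was 18.4%, 21.76% and 18.98% at 2.8 mM and 3.182%, 3.371%, 4.399% and 13.15% at 16.7 mM in control cells, and 20.5% to 30.41% against 3.837% to 12.36% in *Pcbp2* βKO cells. Replicate 4 stood above the other control samples at 16.7 mM, and all lay below those at 2.8 mM. The control call was lost without replicate 2 at 2.8 mM (adjusted p = 0.07, log2 ratio -2.09 against -2.18 with it). Of the words of *Rps19-205*, 57.37% occur in transcripts of other genes. *Rpl12* went from 54.35% to 32.45% in control cells, which did not pass (adjusted p = 0.088), and from 55.79% to 33.86% in *Pcbp2* βKO cells (adjusted p = 0.0209), a call lost without replicate 2 at either concentration or replicate 5 at 16.7 mM (adjusted p from 0.0534 to 0.0592). The call of *Rps12* was lost without any of 6 *Pcbp2* βKO libraries: replicates 2, 4 and 5 at 2.8 mM and 2, 3 and 4 at 16.7 mM (0.0536 to 0.0756).

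Genes of the respiratory chain had 22 members of 103 and 17 tested. *Atp5j2*, *Atp5md* and *Atp5o*, subunits of ATP synthase, were lower in both genotypes, *Ndufa6* was lower and *Cox4i1* higher in *Pcbp2* βKO cells, and the medians were -0.05 and -0.14. That is 3 lower of 17 in control cells, beside 5.445% of NMD genes and 2.30% of all classes, and 4 lower and 1 higher in *Pcbp2* βKO cells, beside 14.72% and 4.636% of NMD genes (7.66% and 7.22% of all classes). *Atp5j2* was at 15.14%, 18.89% and 11.7% in control cells at 2.8 mM and at 0.46%, 2.994%, 0.7589% and 6.196% at 16.7 mM. The NMD transcript went from 26.51 to 2.544 TPM, with a protein-coding level of 142.3 and 104.4 TPM. In the edgeR count test the log2 changes in control cells were -2.70 (called lower) and 0.40 (not called). Without control replicate 2 at 2.8 mM the control change was -3.12 (adjusted p = 0.0658). The group means of *Atp5md*, *Atp5o*, *Ndufa6* and *Cox4i1* were low, at most 2.336% (*Atp5o* in *Pcbp2* βKO cells at 2.8 mM). Of aminoacyl-tRNA synthetases, 9 of 18 were members and 5 tested: 0 were called in control cells (1 at an unadjusted p under 0.05) and *Cars2* was lower in *Pcbp2* βKO cells, from 21.03% to 9.215%.

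For genes of β cell secretion and identity, 9 of 38 were members and 4 were tested, *Slc2a2*, *Ptprn2*, *Gipr* and *Abcc8*. None was called by limma with glucose (0 and 1 at an unadjusted p under 0.05 in control and *Pcbp2* βKO cells). The share of *Slc2a2*, the glucose transporter of β cells, was high and spread widely, at 32.77% to 44.52% and 27.26% to 47.63% in control cells, and at 32.33% to 49.02% and 29.76% to 38.11% in *Pcbp2* βKO cells. That of *Gipr*, an incretin receptor, was 40.25% to 54.26% and 36.35% to 50.47% in control cells. The groups of both genes overlapped.

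The 26 listed factors of the NMD pathway were all tested at the level of the whole gene, where 7.15% of 22784 genes were called higher and 6.69% lower with glucose in control cells and 13.4% and 10.4% in *Pcbp2* βKO cells. In control cells 2 were higher: *Upf3b*, which links the junction complex to UPF proteins (0.62 on the log2 scale, edgeR adjusted p = 0.0175), and *Nbas* (0.65, adjusted p = 0.00835). In *Pcbp2* βKO cells *Upf3b* (1.04), *Nbas* (0.75) and *Gspt2*, a translation termination factor (0.68), were higher. None was lower in either genotype by edgeR, with 8 and 12 of the 26 at an unadjusted p under 0.05, although DESeq2 called 1 lower in *Pcbp2* βKO cells. On the TPM scale the direction turns, with 20 and 23 called lower and 0 higher. Of these factors 5 are themselves members and 2 were tested for share, *Smg5* and *Magohb*, with 0 called by limma (2 and 1 at an unadjusted p under 0.05). The *Smg5* share was 21.45% and 10.03% in control cells and 14.82% and 14.54% in *Pcbp2* βKO cells at 2.8 and 16.7 mM.

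A second list held 10 genes known as whole-gene targets of the pathway. At the level of the gene 5 were lower at 16.7 mM in both genotypes and 0 higher: the snoRNA host genes *Gas5* (-1.25 in control and -1.19 in *Pcbp2* βKO cells, log2), *Snhg1* (-2.15 and -2.24), *Snhg12* (-1.57 and -1.74) and *Snhg15* (-1.16 and -1.31), and the stress transcription factor *Ddit3* (-2.61 and -3.05). Over all genes 6.69% and 10.4% were called lower. Not called were *Gadd45a* (-0.056 and -0.541), *Gadd45b* (0.011 and -0.475), *Atf4* (-0.402 and -0.316), *Atf3* (-0.873 and -1.739) and *Upp1* (0.542 and 0.405). The medians over all 10 were -1.02 and -1.25, beside 0.04 and 0.01 over all genes.

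The second comparison asked whether the loss of *Pcbp2* changed the share at a fixed glucose concentration. At 2.8 mM 1 of 1359 genes was called, *Ttyh1*, beside 0.0287% of all classes in either direction. At 16.7 mM 0 were called by limma and 0 by edgeR with the gene offset, beside 0.0431% of all classes, and 97 of 1359 had an unadjusted p under 0.05 in limma (smallest adjusted p = 0.131). The median change over the tested genes was 0.02 at 2.8 mM and -0.01 at 16.7 mM. At 2.8 mM 85 genes had an unadjusted p under 0.05.

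*Ttyh1* encodes a membrane protein of the tweety family. Its share at 2.8 mM was 9.455%, 13.67% and 8.505% in control cells and 4.421%, 1.245%, 0.0%, 1.363% and 0.0% in *Pcbp2* βKO cells. All *Pcbp2* βKO samples lay below all control samples, as the naming rule required, and the log2 ratio fell by 2.09 ± 0.28 (adjusted p = 0.00451). The gene was low there, at 6.456 and 6.42 TPM, and its NMD transcript at 0.7166 and 0.1276 TPM, so the change of the ratio depends on the pseudocount, and the call was lost with a pseudocount of 0.01 (adjusted p = 0.195) or 1 (adjusted p = 0.428), on the arcsine scale, with shares of estimated counts and in edgeR with the gene offset. The call held without each library in turn. At 16.7 mM the gene was at 192.2 and 94.31 TPM, and the shares of 13.59% to 22.58% and 15.12% to 17.75% overlapped. With glucose *Ttyh1* rose in *Pcbp2* βKO cells by 2.75 ± 0.24 (adjusted p = 2.865e-06) and had a change of 0.79 in control cells (adjusted p = 0.128).

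Genes named for their response to glucose had genotype estimates of different sizes. For *Hnrnpa1* the difference between genotypes was 0.00 ± 0.30 at 2.8 mM and 0.08 ± 0.27 at 16.7 mM (log2 ratio ± SE), for *Surf1* -0.02 ± 0.29 and 0.11 ± 0.27, and for *Tra2b* 0.04 ± 0.41 and -0.55 ± 0.38. Larger estimates that did not pass were those of *Rbpms*, -0.23 ± 0.85 and 1.28 ± 0.78, and of *Selenoi*, 0.37 ± 0.42 and -0.70 ± 0.39, and *Ttyh1* is described above. *Clk2* was lower in *Pcbp2* βKO cells at 2.8 mM in every sample, at 6.196% to 15.93% against 18.98% to 36.3%, but did not pass (log2 ratio -1.21, adjusted p = 0.305). None of the 34 splicing regulators was called at either concentration (4 and 0 at an unadjusted p under 0.05). A value that misses the threshold does not show that the genotypes act alike.

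The NMD level of members was lower in *Pcbp2* βKO cells for 7 of 2292 genes at 2.8 mM and for 4 at 16.7 mM, beside 1.08% and 0.866% of all classes, and higher for 0 (145 and 181 at an unadjusted p under 0.05, and 9 and 13 higher by DESeq2). Among the NMD factors edgeR and DESeq2 called 0 of 26 at either concentration, with 1 at an unadjusted p under 0.05 at each, beside 2.04% and 1.71% of all genes called in either direction, and of the 10 whole-gene targets edgeR called 0, with 1 and 0 at an unadjusted p under 0.05. *Pcbp2* itself was lower by 1.84 (log2, edgeR adjusted p = 3.612e-06) and by 2.40 (adjusted p = 7.555e-08).

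The interaction of genotype and glucose was tested to ask whether the response of a gene to glucose differed between genotypes. It was called for 0 of 1359 NMD shares by limma and 0 by edgeR with the gene offset, and for 0.0% of all classes, with 48 NMD genes at an unadjusted p under 0.05 and a smallest adjusted p of 0.435, that of *Ttyh1* (1.97 ± 0.38). Of the named genes, *Clk2* had an estimate of 0.93 ± 0.43 and *Selenoi* of -1.07 ± 0.57, each with an adjusted p of 0.999. The larger number of calls in *Pcbp2* βKO cells than in control cells, 263 against 94, therefore does not show a difference between the genotypes, whose groups differ in size.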

How the data were processed

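The 17 samples are RNA-seq libraries of sorted β cells (polyA RNA, ultra-low-input kit, paired reads of 150 nt). Per the paper's methods and the labels, the authors pseudoaligned reads to the mouse reference transcriptome (GRCm39, mm39) with Kallisto and deposited estimated counts per transcript, not normalized. The deposited TPM were scaled by the authors' Kallisto run to effective transcript length and to one total per library. The version of Kallisto was not given in the sources used here. The authors' model held a batch factor whose levels were not given in the sources used here, so none was fitted.

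Members, lists and naming rules were chosen with earlier results of these data known. TPM and estimated counts were summed by gene and annotated class. For each class other than protein-coding of genes with a protein-coding transcript and 1 TPM or more in every sample, log2((class TPM + 0.1)/(other TPM + 0.1)) was tested with limma 3.58.1, with a variance trend, over classes with a mean of 0.5 TPM and a mean estimated count of 10 or more. A fixed pseudocount weighs more where TPM are lower, as at 16.7 mM, and raises the ratio of a class with a small share there. The log ratio of such a class can thus differ from its share in direction. In *Pcbp2* βKO cells the mean share of *Rpl9* went from 0.1459% to 0.1068% with glucose, while its log2 ratio changed by 0.135. Levels were tested with the quasi-likelihood test of edgeR 4.0.16 on rounded estimated counts (TMM, default expression filter). Every fit held the means of the 4 groups, Benjamini-Hochberg adjustment ran over all classes or genes tested, and calls needed an adjusted p under 0.05 and a change over 1.5 times. Both steps were tested on simulated data, in which the limma share test made more false calls than its 0.05 threshold allows and missed many smaller changes, while DESeq2 made more false calls than edgeR. DESeq2 1.42.0, other pseudocounts, filters and scales, and fits without single libraries were the alternatives. Errors are SD over samples or the SE of a fit, which include the counting error of the depth.

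Named genes were, for each comparison, the 5 called genes per direction with the largest difference of mean share, no overlap between groups and a mean gene level of 5 TPM or more; the 5 highest mean shares; up to 4 members per list with the largest difference; and the genes nearest the limit of the rule. Replicate numbers are shared by all groups. The residuals of samples with the same number correlated over 0.1 in all 3 pairs only between control cells at 2.8 and 16.7 mM and only on log2 CPM of genes (0.1232 to 0.2576; 0.0421 to 0.249 on the log ratios), so the control glucose comparison is also given with the replicate number as a block. Transcript structure came from the GENCODE release M39 annotation, matched by identifier, version, length and class. Each transcript was cut into words of 31 bases, which were looked up in 141102 transcripts.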

Additional observations from a re-analysis of the deposited data

Results flagged for a closer look

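Of 75 groups of 4 or 5 samples examined for the named genes, 8 held a sample whose gap to its nearest neighbour was large against the range of the group (Dixon's criterion), which chance gives in about 1 of 20 groups. *Surf1* was at 49.45% in *Pcbp2* βKO replicate 4 at 16.7 mM, with the others at 29.75% to 32.98%. *Nt5c2* was at 31.89% in control replicate 4 at 16.7 mM, with the others at 14.65% to 16.71%, and *Rps19* at 13.15% in the same library, with the others at 3.182% to 4.399%. Both libraries are among the 3 that stood apart on the first principal component, and their values lie towards those at 2.8 mM. *E2f6* was at 55.5% in *Pcbp2* βKO replicate 5 at 16.7 mM, also one of the 3, with the others at 66.52% to 70.96%, and *Ttyh1* at 15.12% there, with the others at 17.27% to 17.75%.

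*Selenoi* was at 37.29% in control replicate 1 at 16.7 mM, with the others at 13.9% to 16.68%, and at 31.92% in *Pcbp2* βKO replicate 2 at 16.7 mM, with the others at 7.839% to 9.138%. *Clk2* was at 6.196% in *Pcbp2* βKO replicate 3 at 2.8 mM, with the others at 13.24% to 15.93%. The part of depth, cell makeup or culture in these values was not tested.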

How the results depend on the processing

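For 35 tested results on named genes under up to 27 alternatives, 866 of 934 values kept their direction and their side of the threshold, 68 kept the direction but missed the threshold and 0 reversed, and 25 of the 35 held without each library in turn. Without the 3 libraries that stood apart and with the replicate block all 35 held. Without control replicate 2 at 2.8 mM the control calls of *Tra2b*, *Tra2a*, *Rps19*, *Atp5j2* and *Dnajc8* were among those lost.

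The 94 share calls with glucose in control cells became 257 with a pseudocount of 1, 219 with no filter, 148 without the libraries apart, 171 with the replicate block and 24 to 139 without single libraries. The 263 in *Pcbp2* βKO cells became 607 with no filter and 197 to 281 without single libraries. The 1 call at 2.8 mM became 0 with pseudocounts of 0.01 and 1, a gene level of 5 TPM or more, the arcsine scale, shares of estimated counts and edgeR with the gene offset. At 16.7 mM and for the interaction, leaving out single libraries gave 0 to 1.

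The 232 NMD level calls with glucose in control cells became 905 on log2 TPM, 376 without the libraries apart, 352 with the replicate block and 70 to 342 without single libraries, and the 480 in *Pcbp2* βKO cells 1304 on log2 TPM and 386 to 495 without single libraries. The 7 calls at 2.8 mM became 21 with DESeq2, 11 without the libraries apart and 5 to 10 without single libraries. The 4 at 16.7 mM became 33 with DESeq2, 7 on log2 TPM, 9 without the libraries apart, 9 with the replicate block, 6 with no filter and 3 to 19 without single libraries. The 0 of the interaction became 4 with DESeq2, 1 with no filter, 1 on log2 TPM and 0 to 1 without single libraries. The 2 NMD factors in control cells became 1 with no filter, 20 on log2 TPM, 4 without the libraries apart, 3 with the replicate block and 0 to 4 without single libraries, and the 3 in *Pcbp2* βKO cells 23, 5 and 3 to 4 on log2 TPM, without the libraries apart and without single libraries.

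The median share over all members, 3.485%, 3.098%, 3.598% and 3.152% in control cells at 2.8 and 16.7 mM and in *Pcbp2* βKO cells at 2.8 and 16.7 mM, became 9.09%, 8.463%, 9.272% and 8.401% when TPM were summed over genes first, 1.8%, 1.641%, 1.871% and 1.629% from estimated counts, and 2.72%, 2.342%, 2.76% and 2.396% at a gene level of 5 TPM or more. The block changed no other comparison by over 1.5 times except the 9 level calls given. The causes of these changes were not tested. With 3 to 5 samples a group and many NMD transcripts told apart by a junction only, small shares are measured least well.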
